A study of Mus musculus with 8 samples.

Results

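The Pou4f (Brn3) genes Pou4f1, Pou4f2 and Pou4f3 were followed on 8 mouse Affymetrix Mouse Genome 430 2.0 arrays through every probe set that the platform annotation assigns to one of them alone. This rule found 3 probe sets among 45037 other than controls: 1429667_at and 1429668_at for Pou4f1, and 1422353_at for Pou4f3. No probe set of Pou4f2 was analysed here. The members thus cover 2 of the 3 genes, out of 18193 genes that a probe set names alone.

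Pou4f factors are transcription factors with a POU-specific domain and a homeodomain, which together bind AT-rich DNA. Pou4f1 (Brn3a) marks sensory neurons of the cranial and dorsal root ganglia, where it is known to end the early neurogenic programme, to maintain neurotrophin receptor and Runx genes, and to act beside Isl1. Pou4f2 (Brn3b) is best known from retinal ganglion cells, and Pou4f3 (Brn3c) from the hair cells of the inner ear, although both also occur in subsets of sensory neurons.

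Total RNA was measured on 4 arrays labelled Ctrl and 4 labelled Exp, and the labels give neither group a genotype, strain, treatment, time or age. One label field names the trigeminal ganglion, which holds the sensory neurons of the face, and another names brain and adrenal medulla. Nothing states that the arrays came from separate animals, so the p-values speak only of the scatter among these arrays, part of which may be technical. A bulk RNA sample cannot tell fewer cells of a type from less RNA per cell. Signals are linear, with a median between 478 and 553 per array over all probe sets; the number of arrays limits the precision, and no detection call was used. Differences are Exp minus Ctrl of quantile normalized log2(signal + 16), so that folds are those of signal + 16. A probe set was tested where its mean lay at or above the 40th percentile of all probe sets, a log2 value of 8.447.

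All 19 measured sensory neuron genes were above this filter, as were 12 of 12 glial genes, 11 of 13 muscle genes, 7 of 10 epithelial genes, 6 of 9 chromaffin genes and 5 of 11 genes of brain neurons, against 12763 of all 18193 genes. The brain genes Emx1, Tbr1, Slc17a7, Gad1, Gad2 and Slc32a1 lay under it, as did the chromaffin genes Dbh, Phox2a and Hand2. The chromaffin genes Chgb, Chga, Th, Pnmt, Slc6a2 and Slc18a1 lay above it, with Ctrl means of 14.38, 12.74, 12.38, 10.16, 9.71 and 8.66. So did the brain genes Neurod6, Camk2a, Neurod2, Dlx1 and Dlx2, with Ctrl means of 11.67, 10.74, 10.30, 9.86 and 8.62. Skeletal muscle genes were uneven across the Exp arrays. The mean of 11 such genes stood 1.56 log2 units above its 8-array mean in Exp 3 and 0.58 above it in Exp 2, at -0.10 in Exp 1 and at -0.72 in Exp 4, while the Ctrl arrays ran from -0.45 to -0.24. Of these, Actn2, Myl1, Acta1 and Chrna1 had Ctrl means under the filter (7.92, 8.08, 8.27 and 8.34). They were thus included only through Exp arrays, as was the epithelial gene Trp63 (Ctrl mean 8.20). The mean of the glial genes ran from -0.45 to 0.01 in Exp and from -0.01 to 0.35 in Ctrl. Of these genes 10 of 12 were lower in Exp, where 6989 of all 12763 tested genes were lower. The glial mean leans on Egr2, which differed by -2.66 (SE 0.97, limma unadjusted p = 0.023, adjusted p = 0.9994) with overlapping groups. The next largest glial difference was -0.53 (SE 0.16) in Plekhb1, and the list median was -0.17. A glial mean without Egr2 was not taken. Epithelial genes were highest on Exp 3 (0.59) and Exp 2 (0.54), lowest on Exp 4 (-0.46), and between -0.23 and -0.06 on Exp 1 and the Ctrl arrays. Of the 19 sensory neuron genes 9 were higher in Exp and 10 lower, with a median difference of 0.00. Among them Uchl1, a neuronal ubiquitin hydrolase, differed by -0.69 (SE 0.19, limma unadjusted p = 0.00615, adjusted p = 0.9994). Its groups did not overlap, as in 1 of the 19 genes and in 287 of all 12763 tested genes.

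Pou4f1 was above the filter on every array, and its level did not separate the groups. By 1429667_at its deposited signal was 85295, 67603, 78326 and 82813 in Ctrl 1 to 4, and 77975, 89421, 83343 and 98847 in Exp 1 to 4. The groups overlapped, with Ctrl 2 the lowest array and Exp 4 the highest, and Exp 2 and Exp 4 exceeded every Ctrl array. The highest signal was 1.46 times the lowest, and the coefficient of variation was 9.96% in Ctrl and 10.2% in Exp (n = 4 each).

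On the normalized log2 scale 1429667_at measured 16.29 ± 0.08 in Ctrl and 16.37 ± 0.07 in Exp (SD, n = 4 each), a difference of 0.08 (SE 0.09). The 95% confidence interval ran from -0.12 to 0.29, or from 0.918 to 1.22 as a fold, around an estimate of 1.06. The difference did not pass limma's test (adjusted p = 0.9994), and an exact two-sided permutation test over all 70 orders of the arrays gave p = 0.2, where the smallest p it can give is 0.0286. Both a halving and a doubling of the signal lie outside this interval.

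The other Pou4f1 probe set, 1429668_at, gave deposited signals of 6587, 7125, 7474 and 8076 in Ctrl 1 to 4 and of 7980, 6848, 7363 and 7240 in Exp 1 to 4. Here all 4 Exp arrays lay within the range of the Ctrl arrays, and Ctrl 1 was lowest and Ctrl 4 highest. The log2 values were 12.83 ± 0.12 in Ctrl and 12.85 ± 0.09 in Exp (SD, n = 4 each), a difference of 0.03 (SE 0.10, 95% confidence interval -0.20 to 0.25). It did not pass either (limma adjusted p = 0.9994, exact permutation p = 0.771). The sign of this small difference turned with each array centred on its median (-0.04).

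**Figure D1:**
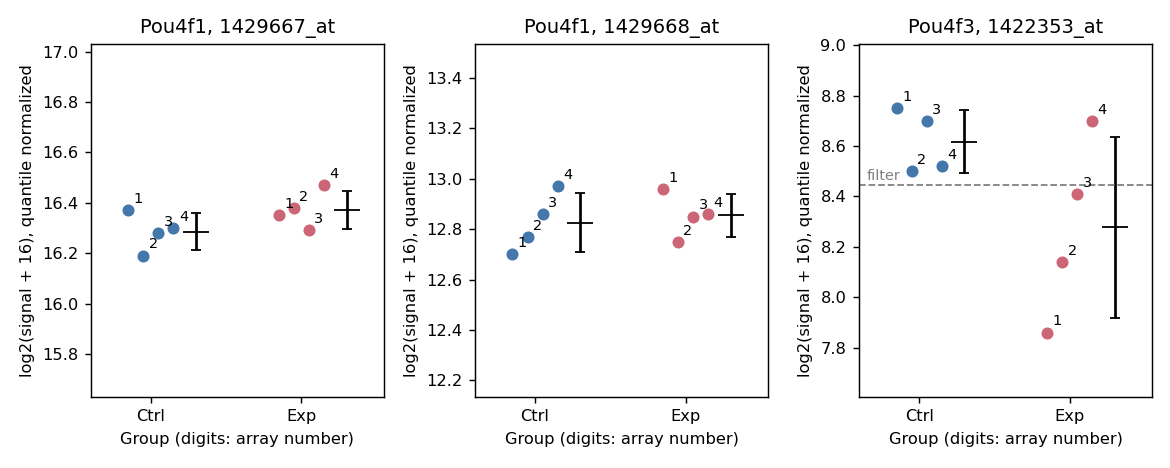
Quantile normalized log2(signal + 16) of the 3 Pou4f probe sets on each array, with array numbers beside the points and the mean ± SD of each group (n = 4) in black; each panel spans the same number of log2 units. Pou4f1 stayed near 16.3 and 12.8 in both groups with overlapping values, whereas Pou4f3 spread widely in Exp around the filter (dashed line, 8.447).

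The residual SD within groups was 0.08 log2 units for 1429667_at and 0.10 for 1429668_at, and 3.95% and 9.83% of the tested probe sets had a smaller one. The median residual SD of all tested probe sets, among them many of low signal, was 0.226. Nefm, a neurofilament gene of like signal, varied by 0.05 (SD) among Ctrl arrays and by 0.04 among Exp arrays. A difference larger in size than that of 1429667_at was found in 59.3% of the tested probe sets, and one larger than that of 1429668_at in 84.3%. Of all 27022 tested probe sets, 1 passed the 5% false discovery rate, or 0.0037%, and the groups did not overlap in 2.34%. Of the 3 Pou4f probe sets 0 passed, 0 had an unadjusted p under 0.05 in limma (against 4.69% of all tested), and 0 had groups that did not overlap.

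The pair of Pou4f1 probe sets is annotated with the same source sequence, BB465134, yet their small movements from array to array did not run together. Over the 8 arrays Pearson's r between them was -0.04 (exact permutation p = 0.938) and Spearman's rho was -0.19 (exact permutation p = 0.665), with this 1 pair tested. Without Ctrl 2 and Exp 4, the 2 arrays farthest from the median of 1429667_at, r was -0.56. After subtraction of each group's mean r was -0.15, and both probe sets lay on the same side of their group mean in 4 of 8 arrays. For comparison, the 3350 genes with exactly 2 tested probe sets had a median r of 0.18 by the same measure, with a middle range of -0.17 to 0.51, and 26.0% of them had a lower r than Pou4f1.

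The log2 ratio of 1429667_at to 1429668_at within an array was 3.46 ± 0.15 in Ctrl and 3.52 ± 0.12 in Exp (SD, n = 4 each), and the difference of 0.05 was smaller than the spread (exact permutation p = 0.629). The probe sets thus gave no unequal change between groups larger than their spread. Since they differ in probes, the size of the ratio itself says nothing about transcript amounts.

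Pou4f3, by 1422353_at, gave deposited signals of 438, 314, 385 and 348 in Ctrl 1 to 4, and of 225, 268, 322 and 426 in Exp 1 to 4. Exp 1 and Exp 2 lay below all Ctrl arrays, Exp 3 lay within their range and Exp 4 was higher than all but Ctrl 1. After normalization Exp 3 also lay below the Ctrl range, so that 3 of 4 Exp arrays lay under it. The log2 values were 8.62 ± 0.13 in Ctrl and 8.28 ± 0.36 in Exp (SD, n = 4 each).

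The Pou4f3 difference of -0.34 (SE 0.18) had a 95% confidence interval from -0.74 to 0.06, or a fold of 0.791 with a range from 0.6 to 1.04. It did not pass limma's test (unadjusted p = 0.0868, adjusted p = 0.9994), nor the exact permutation test (p = 0.143), and 10.5% of the tested probe sets had a difference larger in size. The mean over the 8 arrays cleared the filter by 0.002 log2 units. All 4 Ctrl arrays and 1 of the 4 Exp arrays lay above it, so the probe set was tested only through the group in which it was higher. Without Exp 1 the difference was -0.20 (SE 0.15). It was -0.48 (SE 0.17, unadjusted p = 0.024, adjusted p = 0.9997 by limma) without Exp 4 and without the filter, a fit added after the data were seen.

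**Figure D2:**
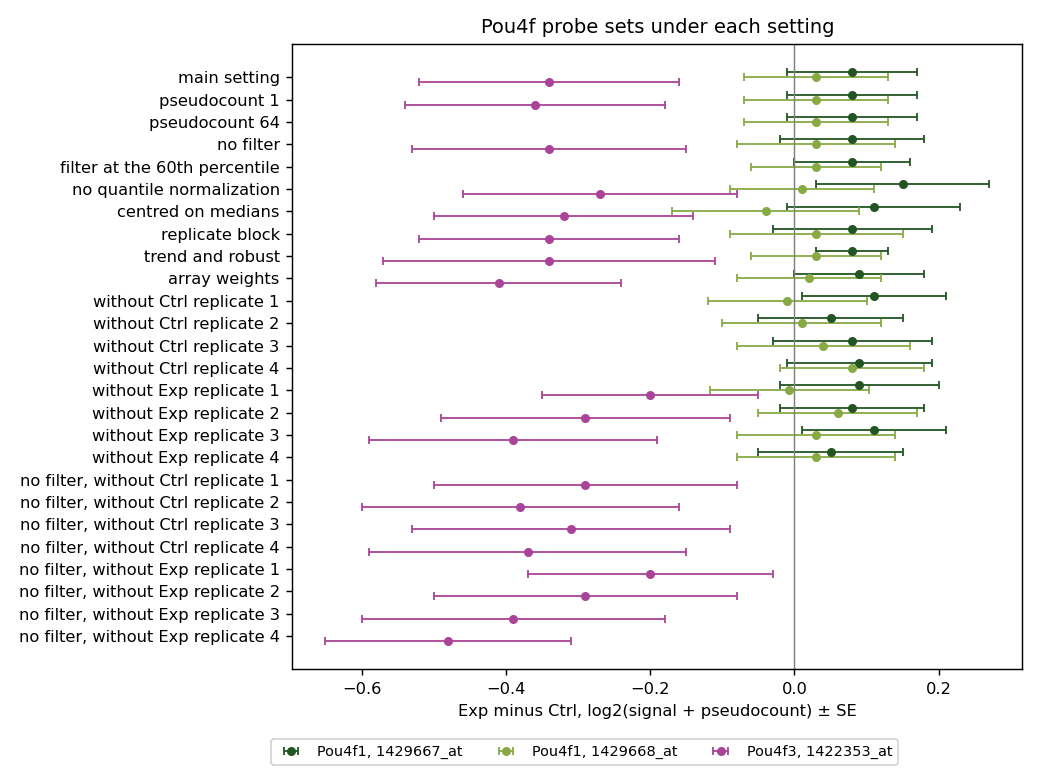
Exp minus Ctrl (log2 units ± SE) of each Pou4f probe set under the main setting and each alternative; a missing point means that the probe set did not pass the filter there or that the setting was run for Pou4f3 alone. Pou4f1 stayed between 0.05 and 0.15 by 1429667_at and between -0.04 and 0.08 by 1429668_at, and Pou4f3 between -0.48 and -0.20.

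The level of Pou4f1 was next set beside the makeup of each sample. With the mean of the 19 sensory neuron genes, 1429667_at had a Pearson's r of -0.78 over the 8 arrays (exact permutation p = 0.0275) and a Spearman's rho of -0.76 (exact permutation p = 0.0368). Adjusted over the 4 marker lists examined, these came to 0.11 and 0.147, so the relation did not pass. The range on both axes was small: the list mean was 0.17 above its 8-array mean in Ctrl 2, where Pou4f1 was lowest, and between -0.08 and 0.03 in the other arrays. Without Ctrl 1 and Ctrl 2, the 2 arrays farthest from the median of the list, r was -0.55, and it was also -0.55 without Ctrl 2 alone. It was -0.95 without Exp 4 (adjusted p = 0.0159, exact permutation) and -0.25 with arrays centred on their medians.

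Glial, muscle and epithelial gene means gave r of 0.09, -0.23 and -0.23 with 1429667_at, with rho of 0.17, -0.21 and -0.38 (exact permutation p = 0.829, 0.548 and 0.582 for r and 0.703, 0.619 and 0.36 for rho; adjusted p = 0.829, 0.776 and 0.776 for r and 0.703 in each case for rho). Without the 2 outermost arrays r was -0.23 for glia, -0.66 for muscle and -0.76 for epithelium, where Ctrl 1 and Exp 3 were left out for glia and Exp 2 and Exp 3 for the other lists. In Exp 3, the array richest in muscle genes, 1429667_at was 16.29, the lowest of the Exp arrays and within the Ctrl range of 16.19 to 16.37. In Exp 4, the array poorest in them, it was 16.47, the highest of all 8. In Exp 2, the next richest in them after Exp 3, it was 16.38, higher than in all but Exp 4.

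**Figure D3:**
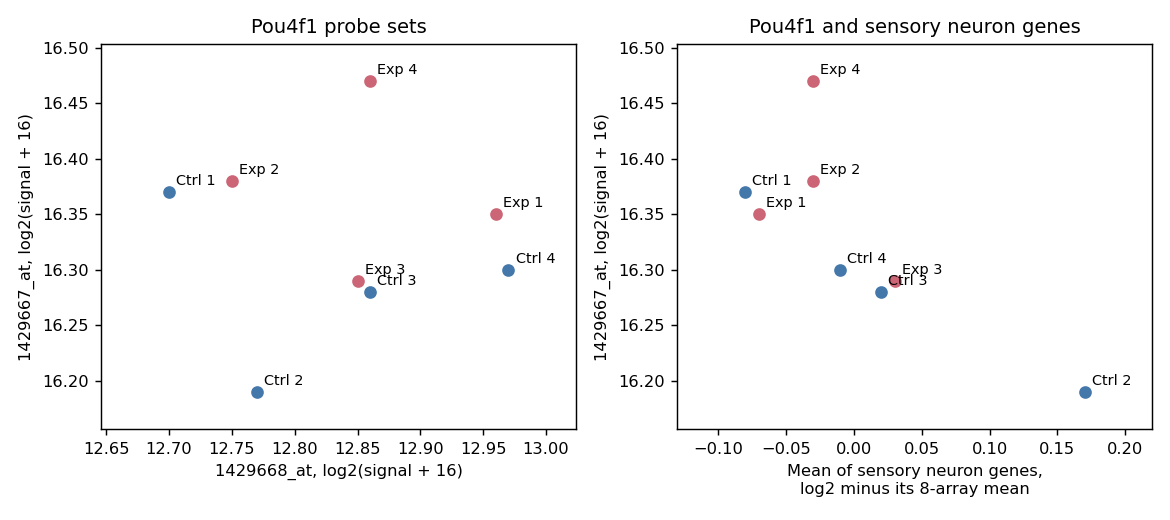
Left, the 2 Pou4f1 probe sets against each other on the 8 arrays (quantile normalized log2(signal + 16)); right, 1429667_at against the mean of 19 sensory neuron genes (log2, minus its 8-array mean). On the left the points show no common direction (r = -0.04), and on the right Ctrl 2 stands apart from the other 7 arrays.

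The genes whose movement within groups was most like that of 1429667_at over the 8 arrays, out of 12762 compared, were Ankrd10 (r = 0.987), Fkbp14 (r = 0.971) and Obsl1 (r = 0.967), each after subtraction of the group means. Of all genes compared, 58 had an r above 0.9. They were picked as the highest of these values, so the size of r is a description. With 1429668_at the same 3 genes had r of -0.13, -0.12 and -0.32, where the 2 Pou4f1 probe sets themselves had -0.15.

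Other POU genes gave no called difference. Of 13 listed genes, 10 had a probe set and 6 were tested, each by its brightest probe set, and all 6 differences were above 0 under the main scaling, without quantile normalization and with median centring. The median difference was 0.22, where all 12763 tested genes had a median of -0.01, and in limma 0 of 6 passed or had an unadjusted p under 0.05. Pou3f3, a factor of the developing nervous system, differed by 0.30 (SE 0.18, limma unadjusted p = 0.139). Pou6f1 differed by 0.15 (SE 0.13) and Pou2f2, a factor of B lymphocytes, by 0.31 (SE 0.27). Further probe sets of these genes, under the filter, went both ways, with -0.28 (SE 0.53) in Pou3f3, 0.38 (SE 0.27) in Pou6f1 and -0.24 (SE 0.53) in Pou2f2. Pou2f3, Pou3f1 and Pou5f1 lay under the filter. So did Pou2af1, which was counted in the list although it encodes a coactivator and not a POU factor.

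Factors that act beside Pou4f1 in sensory neurons gave no called difference. Of 18 listed genes 16 had a probe set and 15 were tested, of which 11 were above 0 and 4 below, with a median of 0.04. In limma 0 passed and 1 had an unadjusted p under 0.05, against 476 of all 12763 tested genes. With median centring the split was 7 to 8. Across all 12763 tested genes 45.2% were above 0, or 33.0% with median centring. Klf7, a zinc finger factor of sensory neurons, differed by 0.29 (SE 0.11, limma unadjusted p = 0.0248, adjusted p = 0.9994). Its other tested probe sets differed by 0.16 (SE 0.15), 0.17 (SE 0.11) and 0.18 (SE 0.09). In the last of them, 1449439_at, the Exp signals of 30582 to 33341 lay above the Ctrl signals of 26717 to 29619, while the groups overlapped in the other 3. On normalized values, 2.34% of all tested probe sets had groups that did not overlap. Six4, a placodal homeobox factor, differed by -0.23 (SE 0.14) and its other tested probe sets by 0.07 (SE 0.21) and -0.03 (SE 0.14). Sox11, a factor of immature neurons, differed by 0.21 (SE 0.14), and its 5 other tested probe sets by -0.94 (SE 0.49), -0.32 (SE 0.44), -0.12 (SE 0.25), -0.09 (SE 0.15) and 0.54 (SE 0.39), so that they went both ways. Isl1, the LIM homeobox partner of Pou4f1, differed by 0.00 (SE 0.09) and 0.01 (SE 0.11) in its 2 probe sets, and Hipk2, a kinase that binds Pou4f1, by 0.01 (SE 0.10).

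Of 19 genes listed as activated by Pou4f1 or dependent on it, 18 were tested, 5 were above 0 and 13 below, with a median of -0.04. In limma 0 passed or had an unadjusted p under 0.05. Bcl2l1 and Bcl2, which protect neurons from apoptosis, differed by -0.27 (SE 0.14) and -0.15 (SE 0.13). The 4 other tested probe sets of Bcl2 went both ways, with -0.37 (SE 0.19), -0.22 (SE 0.20), 0.17 (SE 0.27) and 0.18 (SE 0.28). A probe set of Bcl2l1 under the filter, 1426050_at, differed by 0.99 (SE 0.35, limma unadjusted p = 0.0232, adjusted p = 0.9973 without the filter). Its groups did not overlap, at low signals of 30 to 136 in Ctrl and 143 to 233 in Exp. The share of 2.34% without overlap covers tested probe sets alone, and no such share was taken under the filter. The filter stood at a signal of 333. The other Bcl2l1 probe sets under it differed by -0.25 (SE 0.32) and -0.26 (SE 0.92). Ntrk3, the receptor for neurotrophin-3, differed by -0.23 (SE 0.16), and the other tested probe sets of Ntrk3 by -0.13 (SE 0.18), 0.17 (SE 0.13) and 0.06 (SE 0.12). Runx1 and Runx3, which sort sensory subtypes, differed by -0.14 (SE 0.23) and 0.07 (SE 0.26), and the peptide gene Gal by -0.04 (SE 0.10). The intervals of all tested probe sets printed so far for these genes included 0. That of 1444121_at, a tested probe set of the listed gene Ntrk2, did not. It differed by 0.37 (SE 0.16, limma unadjusted p = 0.0398, adjusted p = 0.9994) with overlapping groups, and the other tested Ntrk2 probe sets by -0.02 to 0.24.

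Of 7 genes listed as repressed by Pou4f1, the early neurogenic factors, 6 were tested. All 6 lay below 0, with a median of -0.11, and 5 of 6 lay below 0 without quantile normalization. Under the main setting 0 were called by limma or had an unadjusted p under 0.05. Neurod1 and Nhlh2, basic helix-loop-helix factors of young neurons, differed by -0.18 (SE 0.22) and -0.20 (SE 0.25), and Nhlh1 by -0.07 (SE 0.14). The other tested probe set of Neurod1 differed by 0.06 (SE 0.24). Neurog2, a proneural factor, lay under the filter. The list mean ran from -0.28 to 0.50 in Ctrl and from -0.41 to 0.45 in Exp, around its 8-array mean, so the groups overlapped widely.

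Genes of the tissues in which the other Pou4f factors are best known were in part above the filter, and none was called by limma. Of 9 measured hair cell genes 5 were tested, and Atoh1, Gfi1, Espn and Chrna9 lay under it. Myo6, an unconventional myosin, differed by -0.35 (SE 0.12, limma unadjusted p = 0.0166) and Otof, otoferlin of the hair cell synapse, by 0.45 (SE 0.17, unadjusted p = 0.0264). Lhx3, a LIM homeobox factor, differed by -0.67 (SE 0.27, unadjusted p = 0.0363). Its mean was 8.98 in Ctrl and 8.31, under the filter, in Exp, so it was tested only through the group in which it was higher. With Lhx3 counted, 3 of 5 had an unadjusted p under 0.05, against 476 of all 12763 tested genes. With adjustment over all probe sets 0 of 5 passed. The groups did not overlap for Myo6 and Otof (against 287 of all 12763 tested genes), which went opposite ways. Another tested probe set of Myo6 differed by -0.13 (SE 0.22). Of 8 measured retina genes 2 were tested: Opn4, melanopsin of light-sensitive ganglion cells, at 0.10 (SE 0.19) and Crx, a photoreceptor factor, at -0.11 (SE 0.25), with 0 of 2 under an unadjusted p of 0.05.

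**Figure D4:**
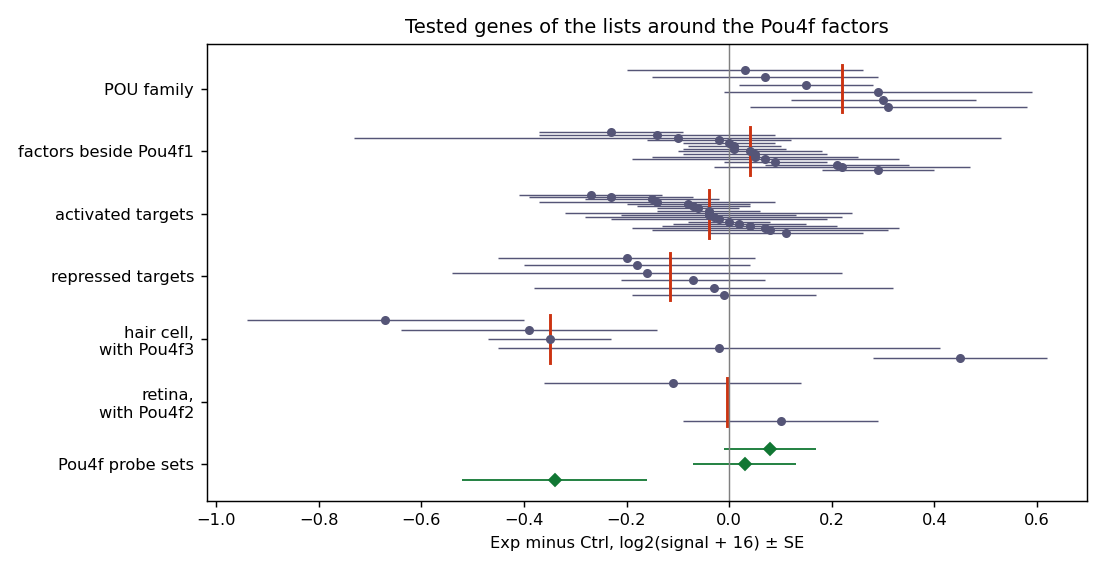
Exp minus Ctrl (log2 units ± SE) of each tested gene of the lists around the Pou4f factors, by its brightest tested probe set, with the list median as a red bar and the 3 Pou4f probe sets as green diamonds. Most genes lie within 0.3 of 0, and the hair cell list spreads from -0.67 to 0.45.

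Obi1, a ubiquitin ligase of replication origins and the next protein-coding gene after Pou4f1 in the RefSeq order of GRCm38.p6, behaved unlike Pou4f1. Its tested probe set 1428498_at gave deposited signals of 12829 to 19169 in Ctrl and of 34808 to 85256 in Exp. The groups did not overlap, against 2.34% of all tested probe sets. The difference of 1.66 (SE 0.24) did not pass over all probe sets (limma adjusted p = 0.4452). Its other probe sets, under the filter, differed by 1.28 (SE 0.59) and 0.12 (SE 0.24) with overlapping groups.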

How the data were processed

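Intensity values of 8 arrays were taken from the deposited table, 1 linear value per probe set and array; the sources used here do not name the software behind the authors' intensity values, and the labels name no batch. Trimmed means (2% at each end) were 2500 in every array, so a difference is relative to most probe sets. The 64 control probe sets were left out. Values were taken as log2(signal + 16) and quantile normalized, and 27022 of 45037 probe sets with a mean at or above the 40th percentile were tested with limma 3.58.1 (R 4.3.3, lmFit and eBayes, two-sided, Benjamini-Hochberg over all tested). Exact permutation tests ran in Python 3.11.15. The fit was tested on simulated data. Genes were named from the platform annotation, updated by Entrez identifier through RefSeq (GRCm38.p6): 34945 probe sets had 1 name, 932 several and 9160 none, and 34741 matched. Each listed gene stands by its brightest tested probe set.

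Named were all Pou4f probe sets, Obi1 and the 3 genes most like 1429667_at. Also named were the 3 smallest p of each of the 6 lists of POU, factor, target, hair cell and retina genes. Further genes (Isl1, Hipk2, Runx1, Runx3, Gal, Uchl1, Nefm, Egr2 and the other named marker genes) and probe sets were added after their values were seen. Members and lists were chosen with earlier results of these data known. The lists of activated and repressed genes rest on general knowledge of Pou4f1. Alternatives were pseudocounts of 1 and 64, no filter, a 60th percentile filter, no normalization, median centring, array weights, trend and robust options, the replicate number as a block, and each array left out. Figures were drawn with matplotlib 3.10.9.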

Additional observations from a re-analysis of the deposited data

Results flagged for a closer look

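In each group of 4 arrays, a value was singled out where its gap to the nearest other exceeded 0.829 of the group's range. Such values occurred in 6 of 74 groups; chance gives 1 in 20, or 3.7. None was in a group of a Pou4f probe set. Bcl2l1 was 11.87 in Exp 3 against 11.62 to 11.65 in the other Exp arrays. Opn4 was 8.41 in Ctrl 2 against 9.07 to 9.19, and Otof was 8.21 in Ctrl 1 against 8.86 to 8.91 in the other Ctrl arrays. Pou2f2 was 9.57 in Exp 1 against 8.97 to 9.01. The mean of the POU list was 0.09 in Ctrl 1 against -0.18 to -0.14 in the other Ctrl arrays, and that of the brain neuron list 0.25 in Exp 1 against -0.14 to -0.10.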

How the results depend on the processing

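Under all 17 alternatives 1429667_at kept a difference above 0 and stayed uncalled (0.05 to 0.15; without 1 array 0.05 to 0.11). 1429668_at stayed uncalled in all 17 and turned sign in 3: it was -0.04 with median centring, and without 1 array it ran from -0.01 (Ctrl 1; -0.0069 without Exp 1) to 0.08. Pou4f3 kept its sign in the 10 of the 17 alternatives that gave a value (-0.41 to -0.20), with the largest size under array weights (-0.41, SE 0.17, unadjusted p = 0.0362, adjusted p = 0.8014), and in the other 7 it did not pass the filter. In 8 fits without the filter and without 1 array, added after the data were seen and in part repeating those, it ran from -0.48 to -0.20. The count of called probe sets, 1, fell to 0 without a filter, with the 60th percentile filter and with the replicate block (unadjusted p under 0.05 in 2221, 753 and 1269), and to between 0 and 1 without 1 array, where it stayed at 1 only without Exp 2. With the replicate block the differences were 0.08 (SE 0.11), 0.03 (SE 0.12) and -0.34 (SE 0.18). Arrays sharing a number had correlations of deviations between -0.123 and 0.0495, and 0 of 8 arrays correlated best with their own number. These values showed no pairing by number, but they cannot tell whether samples sharing a number were collected or processed together.

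The correlation between the Pou4f1 probe sets ran from -0.32 to 0.12 without 1 array, turning sign in 3 such fits, and that with sensory neuron genes from -0.95 to -0.55. Without quantile normalization r was 0.05 for muscle and 0.07 for epithelium; with median centring it was -0.10 for glia, 0.16 for muscle and 0.08 for epithelium. Without 1 array r ran from -0.06 to 0.19 for glia, from -0.44 to 0.06 for muscle and from -0.52 to 0.16 for epithelium. The cause of these turns was not tested. Low signals such as that of Pou4f3 have no background estimate here.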
